A study of Mus musculus with 4 samples.

Results

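The Notch pathway genes described here are 10 genes with set roles: the receptor genes Notch1, Notch2 and Notch3, the ligand genes Dll1, Dll3 and Jag1, the target genes Hes1, Hes5 and Hey1, and Rbpj, which encodes the DNA-binding partner of the receptors. They were chosen by name, and every probe set that the platform annotation paired with one of them alone was taken. Of the 10 genes, 8 had such a probe set, with 12 probe sets between them, out of 8251 genes and 12422 probe sets on the array. Dll3 and Jag1 had none in the annotation used and were not analysed here.

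Notch receptors are cut when a ligand on a neighbouring cell binds them, and the freed intracellular part enters the nucleus and joins Rbpj on DNA. Without it, Rbpj recruits corepressors. Genes switched on in this way include Hes and Hey genes, whose products are basic helix-loop-helix (bHLH) repressors. In the embryonic forebrain Hes1 and Hes5 hold back the proneural genes and keep progenitor cells undifferentiated, while cells that start to become neurons raise Dll1 and signal to their neighbours.

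Mouse RNA was measured on 4 Affymetrix MG_U74Av2 arrays, 1 sample each. The neurosphere array came from floating neural stem and progenitor cell clusters of the telencephalon at stage E13.5, grown in DMEM and F12 medium with FGF2. Their labels list astrocytes, glia and oligodendrocytes as contaminants. A pair of arrays titled aggregation and suspension came from embryoid bodies, which are unattached clusters of the R1 embryonic stem (ES) cell line, held for 48 hours in DMEM with LIF and beta-mercaptoethanol. The last array came from adherent R1 cells on gelatin with the same supplements. The embryoid body arrays share a sample identifier, were treated as 2 replicates, and are not stated to be separate cultures, so the p-values reflect nothing beyond the difference within this pair, which may be technical. The other groups had no replicates, and the number of arrays limits all precision. No strain is given, and all R1 arrays rest on a single cell line.

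The deposited signals of the neurosphere and aggregation arrays were on one scale, with trimmed means of 29.9 and 33.0, and those of the suspension and adherent arrays on another, with trimmed means of 1501 each. All arrays were therefore scaled to one trimmed mean of 500. After scaling, the median signal lay between 177 and 239 and the 10th percentile between 17.3 and 33.3. Because only the aggregation array shares the neurosphere scale, the neurosphere value minus the aggregation value is given beside each main difference of the Notch genes. Of 5 pluripotency markers 4 fell in neurospheres and 0 rose, with Sox2 as the exception. Of 4 tested neural progenitor markers Nes and Fabp7 rose and 0 fell. Pax6 was below the median on every array, and Slc1a3 had no probe set. In such bulk samples fewer cells that express a gene and less RNA per cell cannot be told apart.

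Promoters were sought for all 10 genes, to show whether they hold the letters that Rbpj is known to bind. RefSeq start-site windows (build GRCm38.p6, 250 bases before to 50 after the start) were found for 8 of the 10 genes, in 10 windows, and not for Hes1 and Hey1. The Rbpj core TGGGAA was searched on both strands, as was the longer GTGGGAA, which contains it. Among all 32851 windows 25.6% held the core and 6.4% the longer form. The windows of Hes5 (chr4:154960673-154960972, plus strand), Rbpj (chr5:53590096-53590395, plus strand) and Dll1 (chr17:15376883-15377182, minus strand) are printed 5′ to 3′ along the gene, with each core in capitals; TTCCCA is the core on the opposite strand.
Hes5: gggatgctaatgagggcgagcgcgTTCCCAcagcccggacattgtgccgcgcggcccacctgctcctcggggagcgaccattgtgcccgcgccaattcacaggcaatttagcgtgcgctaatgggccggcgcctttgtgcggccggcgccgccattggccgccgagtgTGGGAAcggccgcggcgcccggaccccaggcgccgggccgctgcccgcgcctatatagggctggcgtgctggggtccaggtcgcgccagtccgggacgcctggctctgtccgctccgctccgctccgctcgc
Rbpj: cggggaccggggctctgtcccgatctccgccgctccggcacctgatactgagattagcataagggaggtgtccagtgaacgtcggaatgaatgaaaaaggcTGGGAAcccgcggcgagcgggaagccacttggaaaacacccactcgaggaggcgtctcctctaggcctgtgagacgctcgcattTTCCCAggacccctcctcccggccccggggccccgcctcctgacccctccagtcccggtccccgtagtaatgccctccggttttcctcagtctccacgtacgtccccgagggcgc
Dll1: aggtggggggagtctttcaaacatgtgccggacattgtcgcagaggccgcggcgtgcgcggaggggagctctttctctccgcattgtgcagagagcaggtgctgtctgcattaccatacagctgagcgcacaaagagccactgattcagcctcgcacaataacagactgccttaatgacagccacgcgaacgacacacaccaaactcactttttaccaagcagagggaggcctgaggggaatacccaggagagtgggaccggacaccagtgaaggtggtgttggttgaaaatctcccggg
The Hes5 window held 2 cores, with their first bases at positions -226 and -82 from the start site, on opposite strands, and both extended to GTGGGAA. The Rbpj window held 2 cores, at -149 and -65, with 0 of the longer form. A second Rbpj window that overlaps the first held 1 core, which is the same site as the one at -65 of the first. Neither Dll1 window held the core, nor did those of Notch1, Notch2, Notch3, Dll3 and Jag1. The E box CACGTG, to which Hes and Hey proteins bind, was in 0 of the 10 windows against 7.2% of all windows. The N box CACNAG, another Hes site, occurred in Notch1, Notch2, Notch3 and a Dll1 window, and in 42.5% of all windows. A match describes letters, not binding.

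Neurospheres were first set against R1 cells, to ask how the pathway's genes differ between neural progenitor cultures and ES cells. Rbpj fell, while Dll1 and the targets Hes5 and Hey1 rose. Notch1 had a pair of probe sets that differed: one of them was many-fold higher in neurospheres, while the other, used for the gene because its mean log2 signal was higher, did not pass the test. Notch2, Notch3 and Hes1 did not pass. Differences are neurospheres minus R1 cells, with embryoid bodies (averaged) and adherent cells weighted equally, on a log2(signal + 32) scale that understates changes of dim genes, with limma's adjusted p over 6843 features. Of the 8 genes, 3 rose against 8.27% of all features, and 1 fell against 12.2%. Their median difference was 1.09, and that of all features 0.10. Before adjustment, 5 were higher (15.3% of all features were) and 1 lower (17.4%) with p under 0.05. By signal alone, the same 3 genes were at least 2-fold above each R1 array (10.1% of all features were), and Rbpj was at least 2-fold below each (11.0%).

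**Figure D1:**
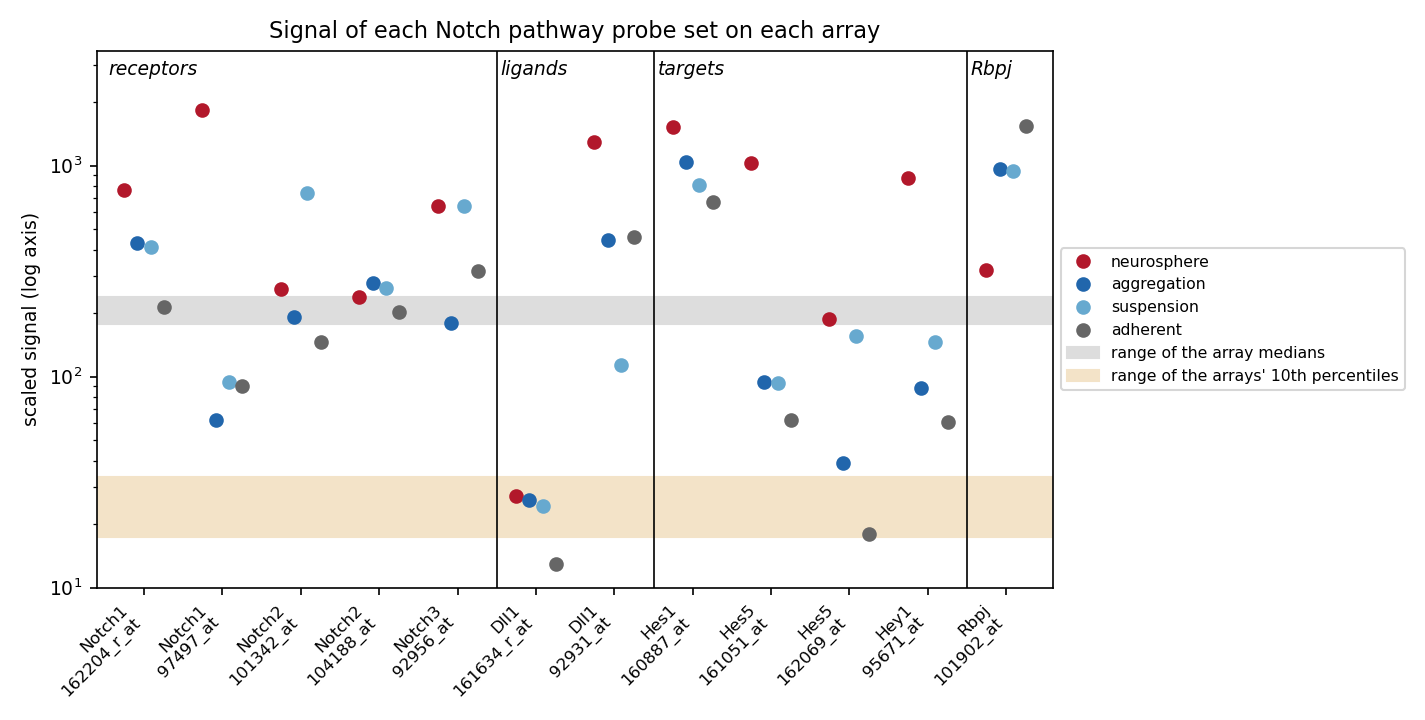
Scaled signal (log axis) of the 12 probe sets, with 1 point per array in the order neurosphere, aggregation, suspension, adherent. Grey and tan bands give the ranges of the array medians and 10th percentiles. Neurosphere points for Hes5 161051_at (1026), Hey1 (869), Dll1 92931_at (1288) and Notch1 97497_at (1827) stand above all R1 points, and that for Rbpj (321) stands below them.

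Notch1 encodes the main Notch receptor of forebrain progenitors. On probe set 97497_at its scaled signal was 1827 in neurospheres, while R1 cells had 62.5 in aggregation, 94.1 in suspension and 90.6 in adherent culture. The neurosphere array thus stood alone, and the 3 R1 arrays lay together at percentiles 23.7 to 37.0 of their arrays. The difference was 4.01 ± 0.69 (SE; limma adjusted p = 9.77e-05) in a fit where each of the 8031 probe sets over the signal filter was its own feature, and 4.30 against the aggregation array alone. In that fit 4 of the 10 member probe sets tested rose against 8.38% of all, and 1 fell against 12.1%. The probe set reached an array median in neurospheres alone, but kept its call with no filter (adjusted p = 0.00519).

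The other Notch1 probe set, 162204_r_at, had a signal of 766 in neurospheres and, among R1 arrays, 428 in aggregation, 412 in suspension and 214 on gelatin. The single neurosphere array was again highest, but the difference was 1.26 ± 0.47 (adjusted p = 0.0647), and 0.79 against the aggregation array. Against the adherent array alone it passed (1.70, adjusted p = 0.0433), and against the embryoid bodies alone it did not (0.82, adjusted p = 0.288). The _r_at class marks probe sets built with some of the design rules relaxed. With the mean of both probe sets the gene passed as a whole (2.63, adjusted p = 0.00302). Probe set 162204_r_at also passed when at least 2 arrays at the median were required (1.26, adjusted p = 0.0488). The call for Notch1 thus depends on how its probe sets are combined, on the filter and on the arrays compared.

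Notch2 encodes a second receptor of progenitor cells. Probe set 101342_at gave 260 in neurospheres, against 192 in aggregation and 745 in suspension embryoid bodies and 146 in adherent cells. The suspension array was highest, and the neurosphere value lay within the range of the R1 arrays (0.10 ± 0.65, adjusted p = 0.933; 0.38 against aggregation). Probe set 104188_at gave 238 in neurospheres, while R1 cells had 276 in aggregation, 262 in suspension and 202 in adherent culture, all close to the array medians. Its difference was 0.03 ± 0.62 (adjusted p = 0.98; -0.19 against aggregation), and on it the aggregation and suspension arrays lay 0.07 apart in log2, against 1.79 on the first.

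Notch3, a receptor also known from vascular mural cells, had a signal of 641 in neurospheres and, among R1 arrays, 180 in aggregation, 641 in suspension and 318 on gelatin. Neurospheres and suspension were level, and the aggregation array was lowest. The difference did not pass (0.89 ± 0.57, adjusted p = 0.294), and it was 1.66 against the aggregation array. Without the suspension array the value was 1.30 and without the aggregation array 0.47, and neither passed.

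**Figure D2:**
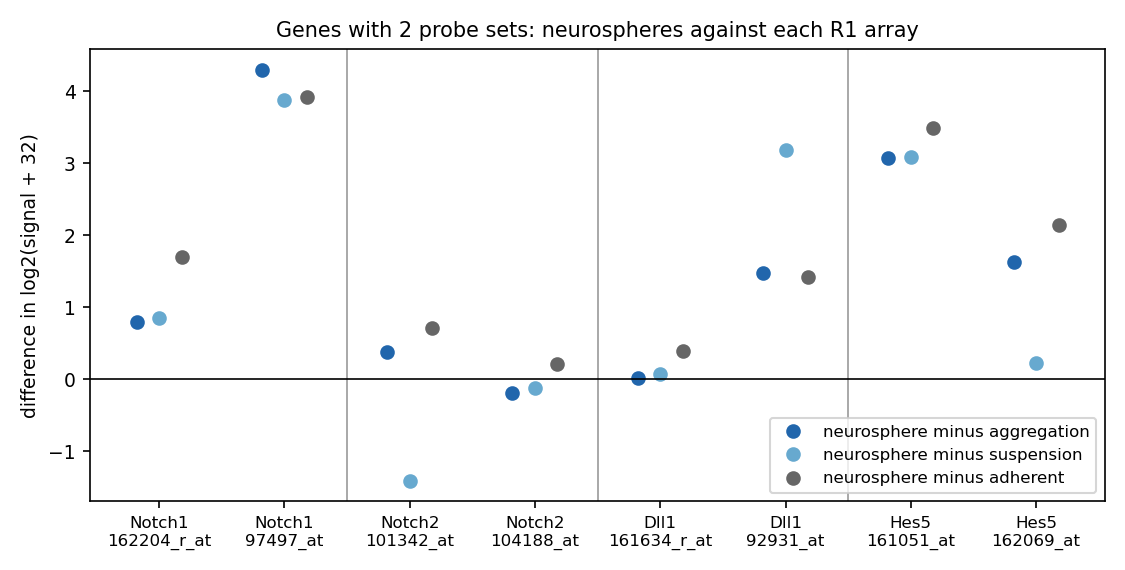
Neurosphere value minus each R1 array, in log2(signal + 32), for the 4 genes with 2 probe sets. Points for Notch1 97497_at lie between 3.88 and 4.30 and those for Notch1 162204_r_at between 0.79 and 1.70. Hes5 162069_at lies at 0.23 against suspension, while Hes5 161051_at lies at 3.07 or above against each R1 array.

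Among ligands, Dll1 was measured. It encodes a Delta ligand that nascent neurons present to progenitors. On 92931_at the signal was 1288 in neurospheres, against 442 in aggregation and 113 in suspension embryoid bodies and 461 in adherent cells. Neurospheres were highest, aggregation and adherent cells were close to each other, and suspension was lowest. Dll1 rose by 1.88 ± 0.56 (SE; adjusted p = 0.021), and by 1.48 against the aggregation array. The call ended without the suspension array (1.45, adjusted p = 0.0883), against the adherent array alone (1.42, adjusted p = 0.156) and with no signal filter (adjusted p = 0.116). The other probe set, 161634_r_at, lay between 12.9 and 27.0 on all 4 arrays, at percentiles 5.7 to 8.5, and was not tested.

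Hes5, a target gene and a repressor of proneural genes in forebrain progenitors, rose. On 161051_at the signal was 1026 in neurospheres, while R1 cells had 93.8 in aggregation, 92.8 in suspension and 62.1 in adherent culture. The R1 arrays lay close to one another, at percentiles 30.4 to 32.2, and the neurosphere array stood at 85.4. The difference was 3.28 ± 0.72 (adjusted p = 0.00241), and 3.07 against the aggregation array. Probe set 162069_at was below the median on all arrays, with 188 in neurospheres and, among R1 arrays, 38.8 in aggregation, 156 in suspension and 17.9 on gelatin. On it neurospheres were again highest, but the suspension array came close to them.

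Hey1, a related bHLH repressor that also acts in vessels and heart, had a signal of 869 in neurospheres, against 88.2 in aggregation and 146 in suspension embryoid bodies and 60.9 in adherent cells. Neurospheres were highest, and all R1 arrays lay below their medians. It rose by 2.95 ± 0.72 (adjusted p = 0.0051), and by 2.91 against the aggregation array. Hes5 and Hey1 reached an array median in neurospheres alone, so they passed the filter through the array in which they were high. Both kept their calls with no filter (adjusted p = 0.0164 for Hes5 and 0.0267 for Hey1).

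Hes1, a target gene that is also expressed in ES cells, had a signal of 1517 in neurospheres, while R1 cells had 1036 in aggregation, 809 in suspension and 670 in adherent culture. The order of the single arrays was neurospheres, aggregation, suspension, adherent cells, and every array was at percentile 77.1 or above. The difference of 0.93 ± 0.35 did not pass (adjusted p = 0.0692), and it was 0.54 against the aggregation array. Hes1 was thus above the array median in every culture.

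Rbpj fell. It acts as repressor or activator depending on whether a Notch fragment is bound. Its signal was 321 in neurospheres and, among R1 arrays, 964 in aggregation, 940 in suspension and 1545 on gelatin. Neurospheres were lowest, the embryoid body arrays were nearly level, and adherent cells were highest. The difference was -1.82 ± 0.36 (adjusted p = 9.94e-04), and -1.50 against the aggregation array. RefSeq names 3 Rbpj pseudogenes, and which of these copies the probe set detects was not tested. Dll1 and Rbpj lost their calls without the intensity trend of the variances (adjusted p = 0.177 and 0.0593).

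**Figure D3:**
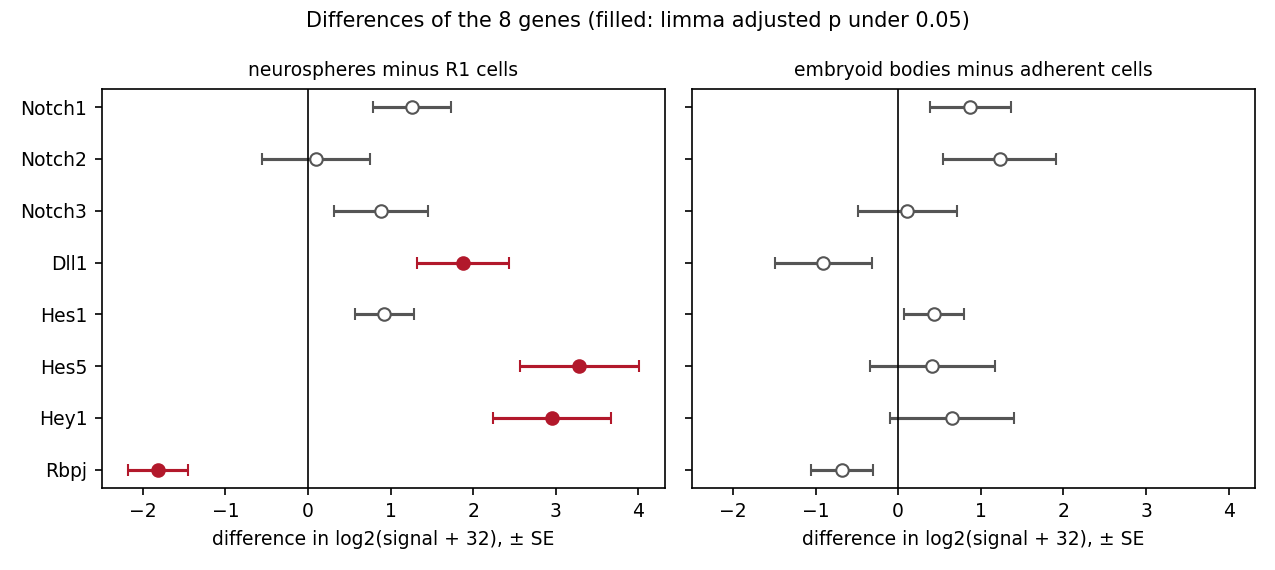
Differences of the 8 genes in log2(signal + 32) with SE, neurospheres minus R1 cells on the left and embryoid bodies minus adherent cells on the right. Filled points passed limma's test. On the left Hes5 (3.28), Hey1 (2.95) and Dll1 (1.88) are filled above 0 and Rbpj (-1.82) below. On the right no point is filled.

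Markers of other cell types were read beside these results. The 4 astrocyte markers summed to 4992 in neurospheres, against 399 in aggregation and 1182.5 in suspension embryoid bodies and 317 in adherent cells, mostly from Aldoc (4221 in neurospheres), the 1 of 3 tested that rose. Gfap gave 379 in neurospheres and 128 to 213 on the R1 arrays and did not pass. The 4 oligodendrocyte markers with a probe set summed to 1941 in neurospheres and to 609 to 1358 on the R1 arrays, and Sox10 was the 1 of 3 tested that rose. The 5 neuron markers summed to 6955 in neurospheres and to 3171 to 4719 on the R1 arrays, and 0 of 3 tested passed, with Tubb3 giving 5910 of the neurosphere sum and Snap25 under the 10th percentile on every array. Map2 (3.26, adjusted p = 0.0511), Dcx (2.06, adjusted p = 0.0536) and Tubb3 (0.69, adjusted p = 0.0659) did not pass, while Dcx and Tubb3 did against the adherent array alone (adjusted p = 0.0321 and 0.0412). The 6 endothelial markers summed to 424 in neurospheres and 671 to 752 on the R1 arrays, 0 of 3 tested passed, and Cdh5 and Tek were under the 10th percentile in neurospheres. The 4 microglia markers summed to 1544 in neurospheres and 1402 to 1849 on the R1 arrays, and 1 of 2 tested, Cd68, fell. The other, Csf1r, had 1195 in neurospheres and 400.2 to 867 on the R1 arrays (1.14, adjusted p = 0.0512). The 1 endoderm and the 1 mesoderm marker tested did not pass. No marker was listed at 0. The part of these cells in the Notch pathway differences was not tested.

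Other genes of the pathway were taken from a list by role. Of 87 listed genes 50 had a probe set and 40 were tested in neurospheres against R1 cells, where 7 rose (against 8.27% of all features) and 3 fell (against 12.2%). At an unadjusted p under 0.05 there were 8 higher and 5 lower, against 15.3% and 17.4% of all features. The median of the 40 was 0.15, close to the 0.10 of all features. Cntn1, a neural adhesion molecule also described as a Notch ligand, had a signal of 1174 in neurospheres, while R1 cells had 199 in aggregation, 203 in suspension and 32.3 in adherent culture. It stood far above all R1 arrays and rose by 3.30 ± 0.63 (adjusted p = 6.24e-04). It reached an array median in neurospheres alone, and with no filter its adjusted p was 0.0116. None of the 3 tested glycosyltransferases, which modify the receptors, passed; Rfng, a Fringe enzyme, lay at 0.65. None of the 6 tested proteases passed, among them Furin, which cuts the receptor on its way to the surface (0.19), and subunits of gamma-secretase. In the trafficking and ubiquitin ligase list, Llgl1, a cell polarity gene, was the 1 of 8 that rose (1.26 ± 0.28, adjusted p = 0.00242; lost without the aggregation array, 1.21).

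**Figure D4:**
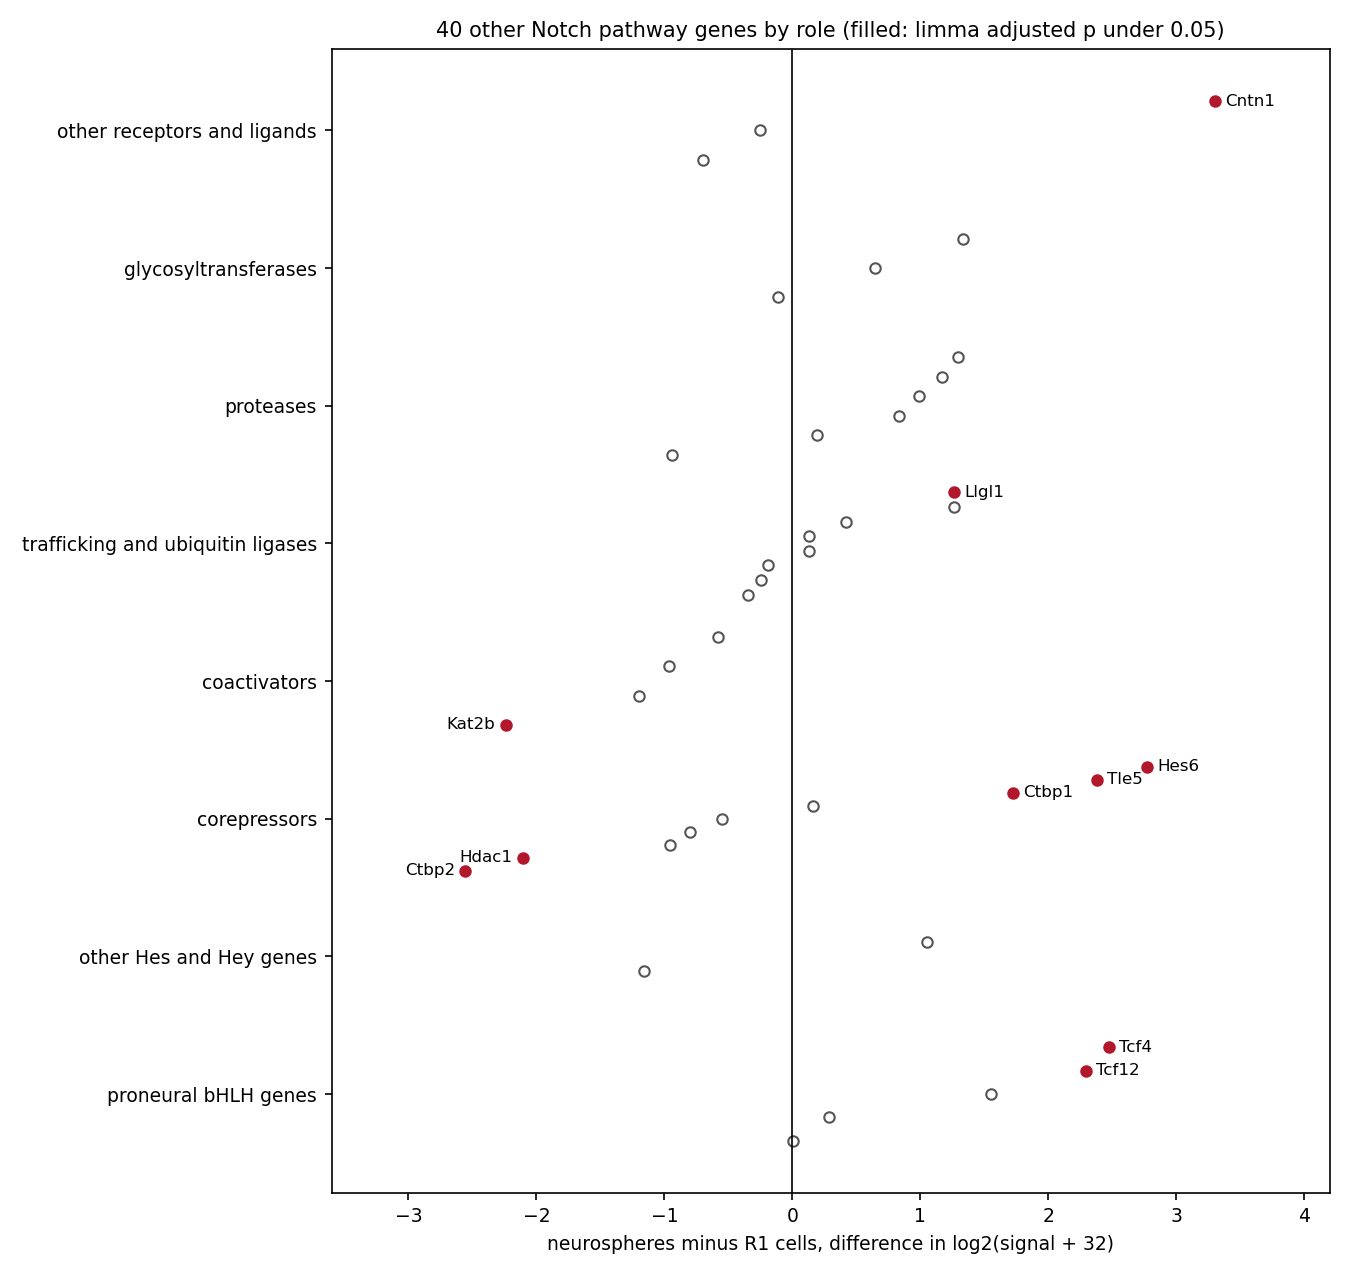
Neurospheres minus R1 cells in log2(signal + 32) for 40 other pathway genes, 1 point per gene, by role. Filled, named points passed limma's test. Corepressor list points lie on both sides, from Ctbp2 (-2.55) to Hes6 (2.77), while 0 of 6 proteases are filled.

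Nuclear partners moved in both directions. In the coactivator list 1 of 4 fell, the acetyltransferase gene Kat2b (-2.24 ± 0.40, adjusted p = 3.42e-04; -1.85 on a second probe set). In the corepressor list 3 of 9 rose and 2 fell. Among all features 8.27% rose and 12.2% fell. Ctbp2 had a signal of 626 in neurospheres and, among R1 arrays, 2866 in aggregation, 3244 in suspension and 4822 on gelatin, and fell by 2.55 on the log2 scale, with -2.60 on its second probe set. Its relative Ctbp1 had 3350 in neurospheres, against 1073 in aggregation and 1159 in suspension embryoid bodies and 883 in adherent cells, and rose by 1.72. The CtBP corepressor genes therefore had opposite signs. The deacetylase gene Hdac1 fell (-2.10). Tle5, a short Groucho family protein known to counteract the longer ones, rose by 2.38. Hes6, known as an inhibitor of Hes1, rose by 2.77 ± 0.50, with a signal of 1537 in neurospheres, while R1 cells had 269 in aggregation, 284 in suspension and 139 in adherent culture. Calls of Ctbp1, Tle5 and Llgl1 ended without the intensity trend. Against the aggregation array alone, the 7 genes that rose lay between 1.22 (Llgl1) and 2.74 (Tcf4) and the 3 that fell between -2.14 (Ctbp2) and -2.00 (Hdac1).

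Apart from Hes6, which was listed with the corepressors and rose, 2 other Hes and related genes were tested. Neither passed, and Bhlhe40 lay at 1.05. Among proneural bHLH genes and their partners 2 of 5 tested rose, against 8.27% of all features. A further 6 with a probe set stayed below the median on all arrays. The 2 that rose were Tcf4 (2.47) and Tcf12 (2.29), which encode broadly expressed E protein partners of proneural factors and are not themselves proneural. Another E protein gene of the list, Tcf3, did not pass (0.29, adjusted p = 0.684). Neurog2, the proneural factor of cortical progenitors, was named after its values were seen. It had 256 in neurospheres and, among R1 arrays, 41.6 in aggregation, 160 in suspension and 48.6 on gelatin. It did not pass (1.56, adjusted p = 0.271). Neurod2, also tested, had 139 in neurospheres, 243 in aggregation, 200 in suspension and 83.4 on gelatin, with no difference (0.01, adjusted p = 0.996).

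Embryoid bodies were next set against adherent cells, to ask whether the pathway changes when ES cells grow unattached. None of the 8 genes passed limma's test in either direction, and 0 of them had an unadjusted p under 0.05, which 8.36% of all features had as higher and 6.02% as lower. Over all features 0.263% were called higher and 0.0877% lower, so few calls were made at all. By signal alone, 0 of the 8 had both embryoid body arrays at least 2-fold above the adherent array (8.86% of all features did) and 0 had both at least 2-fold below (3.73%). Their median difference was 0.42, against 0.09 for all features. Rbpj averaged 952 ± 16.7 in embryoid bodies (SD, n = 2) and 1545 in adherent cells (-0.68 ± 0.38 SE, adjusted p = 0.428). Notch1 on 162204_r_at averaged 420.0 ± 11.9 in embryoid bodies and 214 in adherent cells (0.88 ± 0.49, adjusted p = 0.429). For these 2 probe sets the embryoid body arrays lay close together and apart from the adherent array, without passing the test. Hes5 on 161051_at averaged 93.3 ± 0.701 in embryoid bodies and had 62.1 in adherent cells (0.41 ± 0.75, adjusted p = 0.839). Its other probe set, 162069_at, was not tested and averaged 97.4 ± 82.8 in embryoid bodies, with 17.9 in adherent cells. On 162069_at suspension minus adherent was 1.91 and aggregation minus adherent 0.50. Notch2 on 101342_at averaged 469 ± 391 in embryoid bodies and had 146 in adherent cells (1.23 ± 0.68, adjusted p = 0.428), and Dll1 averaged 278 ± 233 in embryoid bodies and had 461 in adherent cells (-0.91 ± 0.59, adjusted p = 0.496). For both genes the spread between the embryoid body arrays was close to the size of their mean. Hey1 (0.65 ± 0.75), Hes1 (0.43 ± 0.37) and Notch3 (0.11 ± 0.60) also did not pass, and nor did Notch1 on 97497_at (-0.17, adjusted p = 0.935). Within the scale that suspension and adherent arrays share, suspension minus adherent was -0.70 for Rbpj, 0.85 for Notch1 on 162204_r_at and 0.41 for Hes5 on 161051_at. It was 2.12 for Notch2 on 101342_at, 0.95 for Notch3, 0.93 for Hey1, 0.26 for Hes1 and -1.76 for Dll1. Aggregation minus adherent, across the scales, was 0.33 for Notch2 on 101342_at, -0.72 for Notch3, 0.37 for Hey1, 0.61 for Hes1 and -0.06 for Dll1. These differences thus depended on which embryoid body array was taken, and that of Notch3 turned sign. Notch2 on 104188_at lay at 0.33 for suspension minus adherent and at 0.40 for aggregation minus adherent. In the wider list 0 of 40 passed, and 2 genes each way had an unadjusted p under 0.05, against 8.36% of all features higher and 6.02% lower.

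Within the embryoid bodies, the aggregation and suspension arrays were at least 2-fold apart for Notch2, Notch3 and Dll1, 3 of the 8 genes against 17.3% of all features. As aggregation minus suspension in log2, Notch2 lay at -1.79 and Notch3 at -1.67, while Dll1 lay at 1.71. The second Notch2 probe set, 104188_at, lay at 0.07, so the Notch2 gap was seen on 1 of its 2 probe sets. Hes5 (0.01 on 161051_at), Rbpj (0.03), Notch1 (0.05 on 162204_r_at) and Hes1 (0.34) were close on both arrays, and Hey1 lay at -0.56. The second Hes5 probe set, 162069_at, was below the median on all arrays and lay at -1.41. Notch1 on 97497_at lay at -0.42. With 1 array each these values carry no test, and whether the culture form or the array set them cannot be told apart.

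The closest profiles across the 4 arrays, by Euclidean distance between log2 values centred on each gene's mean, were found among 6002 named genes. Hes5 was nearest to Map2 (0.13) and Tmem176b (0.19), and Hey1 to Fdps (0.13) and Smyd2 (0.21). Map2, a neuronal cytoskeleton gene, had 461 in neurospheres, against 25.2 in aggregation and 31.9 in suspension embryoid bodies and 12.0 in adherent cells. Rbpj was nearest to Ect2 (0.13) and Pawr (0.14), Dll1 to Tspyl4 (0.16) and Sall3 (0.33), and Hes1 to Naa60 (0.05) and Tubgcp3 (0.06). Notch1 on 162204_r_at was nearest to Timm10b (0.07) and Papolb (0.09), Notch2 to Tcf19 (0.20) and Ccl8 (0.22), and Notch3 to Sult5a1 (0.11) and Dusp19 (0.19). A profile of 4 arrays is short, and most of these values contrast 1 neurosphere array with the rest.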

How the data were processed

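The deposited values are probe set signal intensities on a linear scale, which the submitters' processing notes credit to MAS5. The version is not given in the sources used here, nor is the scaling target, and detection calls were not used. The 4 arrays were brought to one 2% trimmed mean (500), 66 control probe sets were then left out, 32 was added and log2 taken. Probe sets at or above the array median on at least 1 of 4 arrays were kept, and the one with the highest mean was used per gene (6843 features). One limma 3.58.1 model (R 4.3.3) was fitted to 3 groups with an intensity trend, with 1 residual degree of freedom from the embryoid body arrays and a prior of 19.1, assuming that the single arrays vary alike. Two-sided p-values were Benjamini-Hochberg adjusted across features and called under 0.05. The code was tested on simulated data.

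The genes and lists were chosen with earlier results of these data known. Named were all members, pathway list genes called in either comparison or else the brightest per role, and the 2 nearest profiles per member. Neurog2, Neurod2 and Tcf3 were added after their values were seen. Alternatives changed the added value, scaling, filter, probe sets, variance model and arrays; those of Notch1 97497_at were chosen after seeing the data.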

Additional observations from a re-analysis of the deposited data

How the results depend on the processing

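Over all features, 1398 calls in neurospheres against R1 cells became 489 without the intensity trend. A fit of 2 groups that pools the R1 arrays made 953 calls, and 668 to 775 when 1 embryoid body array was left out of it. The 24 calls in embryoid bodies against adherent cells became 14 after quantile normalization, 2 with the mean of a gene's probe sets, 39 with every probe set as a feature, and 0 with no signal filter or without the trend. Of the 8 Notch pathway genes, 4 calls became 2 without the trend (Hes5 and Hey1). Hes5, Hey1 and Notch1 97497_at kept direction and call in every alternative in which they were tested; with at least 2 arrays at the median required, Hes5 and Hey1 were not tested. Rbpj lost its call in 1 alternative, Dll1 in 4. Notch2 turned sign in 4 alternatives without passing (-0.11 to -0.52). Leaving out an embryoid body array left embryoid bodies against adherent cells with no test.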
